A study of Mus musculus with 30 samples.

Results

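Expression of 9 genes that mark skeletal progenitor cells and the stromal niche of bone marrow was followed in fracture callus, the tissue that bridges a broken bone. The genes were Prrx1, Prrx2, Pdgfra, Lepr, Cxcl12, Ly6a, Thy1, Ebf3 and Foxc1, taken as a named list and looked up by Ensembl identifier. All 9 were present among the 43629 genes of the count table. Each was detected in all 30 libraries, with 44 counts or more in every library, and all 9 passed the filter on low counts in every fit.

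Skeletal progenitors of the periosteum and marrow proliferate after a fracture and give rise to the cartilage and bone of the callus. Prrx1 and Prrx2 are homeobox genes of limb mesenchyme, PDGFRA and the surface antigens SCA-1 (encoded by Ly6a) and CD90 (encoded by Thy1) are used to sort mesenchymal progenitors, and the leptin receptor LEPR marks stromal cells around marrow sinusoids. Those marrow stromal cells secrete CXCL12, the chemokine that holds haematopoietic stem cells and B-cell progenitors in the marrow, and depend on the transcription factors EBF3 and FOXC1 to keep their niche identity. None of these genes is confined to the progenitors, as Thy1 is also made by T cells and Ly6a by lymphocytes, haematopoietic stem cells and endothelium.

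The calli came from 20-week-old male C57BL/6J mice with an open fracture of the right tibia held by an intramedullary nail. Lean mice were kept on a low-fat control diet, and their calli were taken 3, 5, 7 and 10 days after fracture (d3 to d10). Diet-induced obese (DIO) mice were kept on a high-fat diet, and their calli were taken on the same days and on d14 and d21. Each group held 3 mice, with 1 poly(A) RNA-seq library per callus. The last 2 time points were not analysed here for the lean diet, and a change in DIO mice after d10 therefore has no lean counterpart. Obesity here is that of the diet in 1 sex and 1 strain. The paper states that soft tissue around the callus was removed at harvest and intact bone avoided. Markers of skeletal muscle were nevertheless found in every library.

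Library totals ran from 13247122 to 26365620 counts (median 16854427). The 8 osteoblast markers examined summed to between 14376 and 70303 CPM (the reads of a gene relative to all reads of its library, after TMM scaling) in each library, and the 8 cartilage markers to between 783 and 74217 CPM. The lean d10 library of replicate 1 stood apart from the other two of its group. Its cartilage markers summed to 74217 CPM against 17149 and 16463, its skeletal muscle markers to 1063 against 14510 and 10026, and its adipocyte markers to 62.5 against 165 and 177. It was also the lowest of the 3 in Cxcl12, Ebf3, Lepr, Pdgfra and Prrx1 and the highest in Prrx2, Ly6a, Thy1 and Foxc1. Most of the fitted differences of members that rest on lean d10 are therefore given with and without it. In DIO calli the 7 skeletal muscle markers summed to between 18145 and 24957 CPM on d10 and between 362 and 12471 on d21. Replicate 2 of DIO d21 held 12471 CPM, against 362 and 2274 in replicates 1 and 3. It was the highest of its group in Prrx2, Thy1, Ly6a and Pdgfra, and the lowest in Lepr and Ebf3. Prrx1, Cxcl12 and Foxc1 lay between. The part of muscle in the values of the members was not tested.

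Promoter windows from RefSeq (build GRCm38.p6) were matched for 7 of the 9 genes, each running from 250 bases before the transcription start to 50 bases after it. The 4 windows printed here belong to the pair Prrx1 and Prrx2, paralogs whose levels separated with time in DIO mice, and to Cxcl12 and Ebf3, which rose together. Capitals mark a match to TAATTA, the core of paired-class homeodomain sites, or to CCCNNGGG, the core of sites for EBF factors, which reads the same on both strands.

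Prrx1 promoter (chr1:163313601-163313900, minus strand): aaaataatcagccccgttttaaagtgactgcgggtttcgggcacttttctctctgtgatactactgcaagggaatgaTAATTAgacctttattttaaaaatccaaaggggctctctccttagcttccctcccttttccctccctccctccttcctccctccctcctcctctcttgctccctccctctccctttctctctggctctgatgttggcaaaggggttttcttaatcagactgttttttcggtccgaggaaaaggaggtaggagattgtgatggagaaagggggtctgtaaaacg

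Prrx2 promoter (chr2:30845117-30845416, plus strand): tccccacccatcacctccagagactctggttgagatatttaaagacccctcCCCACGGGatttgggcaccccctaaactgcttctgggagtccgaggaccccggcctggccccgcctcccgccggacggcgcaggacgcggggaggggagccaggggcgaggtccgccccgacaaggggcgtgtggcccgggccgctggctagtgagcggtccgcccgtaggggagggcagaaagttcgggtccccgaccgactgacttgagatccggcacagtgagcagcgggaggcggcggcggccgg

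Cxcl12 promoter (chr6:117168285-117168584, plus strand): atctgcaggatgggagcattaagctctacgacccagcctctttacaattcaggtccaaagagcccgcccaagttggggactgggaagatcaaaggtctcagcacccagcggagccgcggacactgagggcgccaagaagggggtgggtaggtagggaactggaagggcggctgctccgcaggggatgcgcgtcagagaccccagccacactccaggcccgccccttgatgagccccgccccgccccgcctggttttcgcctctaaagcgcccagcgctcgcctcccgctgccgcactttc

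Ebf3 promoter (chr7:137314396-137314695, minus strand): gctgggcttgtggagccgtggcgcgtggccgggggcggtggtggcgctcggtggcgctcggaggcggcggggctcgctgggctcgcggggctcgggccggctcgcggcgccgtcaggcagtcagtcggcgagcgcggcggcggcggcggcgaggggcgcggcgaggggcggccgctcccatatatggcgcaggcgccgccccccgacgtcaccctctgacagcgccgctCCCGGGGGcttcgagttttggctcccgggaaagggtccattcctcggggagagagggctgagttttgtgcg

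The Prrx1 window was low in GC (47.7%, with 6 CpG), below the median of all 32817 promoter windows (52.7% and 7 CpG). The Prrx2 window was rich in both, with 70.3% GC and 28 CpG. Cxcl12 had 64.7% GC and 20 CpG in its window, and Ebf3 had 77.0% and 46. Both strands were searched for 4 motifs that do not overlap each other's matches in these windows. TAATTA was found in Prrx1, at position -173 counted from the start, and is held by 5.3% of all windows. CCCNNGGG was found in Prrx2, at -199, and in Ebf3, at -21, and is held by 13.7% of all windows. Neither the forkhead core TGTTTAC (3.65% of all windows) nor the TATA box TATAAA (13.6%) was found in any member's window.

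Per kilobase of exon, and averaged over the 30 libraries, Cxcl12 was the most abundant of the 9 genes at 85.5 CPM per kb, followed by Ly6a at 80.4, Thy1 at 33.8, Prrx2 at 22, Prrx1 at 12 and Pdgfra at 10.1. Lepr at 5.63, Foxc1 at 4.59 and Ebf3 at 3.42 CPM per kb were the lowest. All values that follow are CPM, not divided by length, unless stated otherwise.

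**Figure D1:**
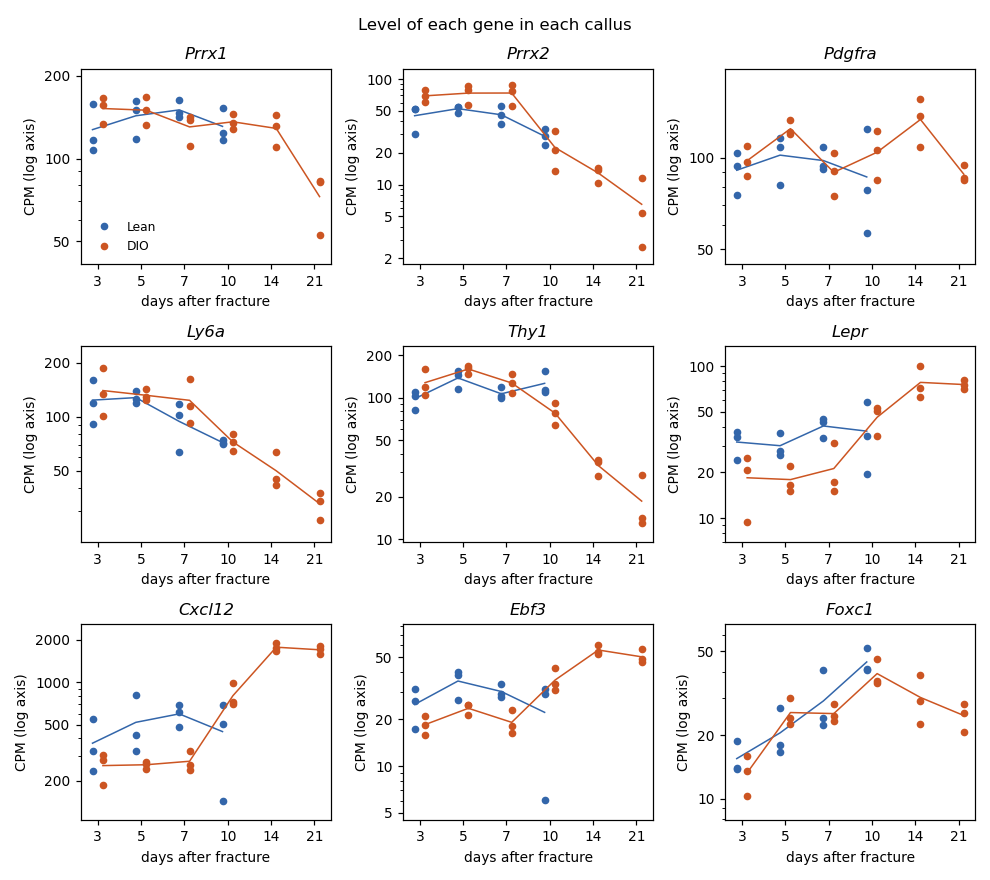
CPM of each gene (log axis) against days after fracture, with 1 point per callus (blue, lean; orange, DIO) and lines through the mean of 3 calli. Cxcl12 in DIO calli stood between 187 and 328 CPM on d3 to d7 and between 1570 and 1877 on d14 and d21, while Thy1 ended at 13.1 to 28.5 CPM on d21.

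The time course in DIO mice separated the 9 genes into those that fell, those that rose and those that did neither. All 9 differed among the 6 DIO days in edgeR's quasi-likelihood test with Benjamini-Hochberg adjustment, against 59.1% of all genes tested. From d3 to d10, 4 genes rose (Lepr, Cxcl12, Ebf3 and Foxc1) and 3 fell (Prrx2, Ly6a and Thy1), where 11.1% of all genes tested rose and 10.8% fell. From d10 to d21, 2 rose (Cxcl12 and Ebf3) and 5 fell (Prrx1, Prrx2, Ly6a, Thy1 and Foxc1), where 21.7% of all genes rose and 21.8% fell. Both comparisons use the same d10 libraries. In whole tissue, fewer cells of a type and less RNA per cell cannot be told apart.

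In lean calli, where 4 days up to d10 were measured, 1 of the 9 genes (Foxc1, adjusted p = 0.0076 by edgeR) differed among the days, against 19% of all genes tested. From d3 to d10, 1 rose (Foxc1) and 1 fell (Ly6a), where 15.2% of all genes rose and 14.1% fell. Counts of members among the lean days moved between 1 and 3 with the tool and filter.

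**Figure D2:**
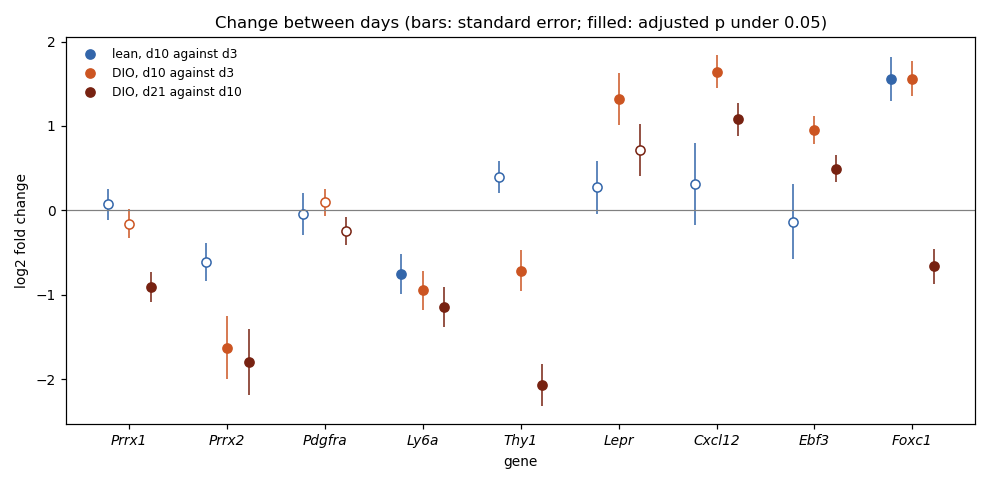
log2 fold change of each gene between days in lean calli (blue, d10 against d3) and DIO calli (orange, d10 against d3; brown, d21 against d10), with the standard error as bars and filled points for an adjusted p under 0.05. Foxc1 is at 1.56 in both diets from d3 to d10 and at -0.66 from d10 to d21 in DIO calli.

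Prrx1 (ENSMUSG00000026586, chr1:163245119-163313710, minus strand), which drives the growth of limb mesenchyme and marks skeletal stem cells of the periosteum, stayed near its early level until the last day. Its DIO values were 133, 166 and 157 CPM on d3, 133, 167 and 150 on d5, 142, 139 and 111 on d7, 135, 128 and 146 on d10 and 145, 110 and 132 on d14. On d21 they were 52.6, 82.5 and 83.1 CPM, below each of the other 27 libraries. The fall from d10 to d21 was -0.91 ± 0.17 on the log2 scale (SE; adjusted p = 6.33e-04 by edgeR). In lean calli Prrx1 ran from 108 to 163 CPM over the 4 days and every pair of neighbouring days in the order of means overlapped. The annotated genes Gm20471 (antisense), Gm26523 and Gm37644 lie within Prrx1 and share 0 exon bases with it.

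Prrx2 (ENSMUSG00000039476, chr2:30834972-30881251, plus strand), the paralog of Prrx1 that acts beside it in limb and skull development, began to fall much earlier. In DIO calli it stood at 68.8, 61.3 and 78.1 CPM on d3, 85.8, 57.2 and 78.1 on d5 and 56, 87.9 and 77.6 on d7. It then dropped to 13.4, 32.4 and 21.5 CPM on d10, 14.4, 10.4 and 13.8 on d14 and 2.53, 11.6 and 5.34 on d21. The 9 libraries up to d7 all lay above the 9 later ones. The change was -1.63 ± 0.37 (log2, SE) from d3 to d10 with an adjusted p of 0.00522 by edgeR, and -1.79 ± 0.39 from d10 to d21 with an adjusted p of 0.00157, and the d21 mean was 10.7-fold below that of d3. Lean Prrx2 was 52.3, 30.2 and 52.4 CPM on d3 and 33.5, 23.9 and 28.7 on d10. These lean groups overlapped, and the change of -0.61 ± 0.22 had an adjusted p of 0.0577 by edgeR, or -0.74 ± 0.25 and 0.0517 without replicate 1 of d10.

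The ratio of Prrx1 to Prrx2 within a library, each per kilobase of exon, put the paralogs' separation on 1 scale. In DIO calli it was 0.394 ± 0.0759 (SD, n = 3) on d3, 0.327 ± 0.106 on d7, 1.23 ± 0.54 on d10, 1.79 ± 0.092 on d14 and 2.57 ± 1.22 on d21. Per kilobase of exon, Prrx2 was thus the higher paralog in all 9 DIO calli up to d7 and Prrx1 in all 6 of d14 and d21. In lean calli the ratio ran from 0.379 to 0.943 over the 12 libraries, with Prrx2 the higher per kilobase in each. The ratio depends on the exon lengths of the annotation (11066 bases for Prrx1 and 1961 for Prrx2), which count every annotated isoform. In CPM, not divided by length, Prrx1 was the higher in every library of both diets.

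**Figure D3:**
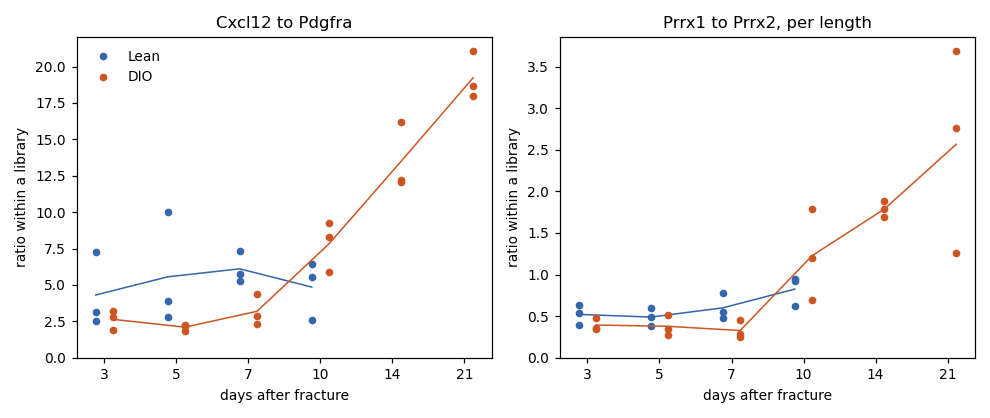
Ratios within a library against days after fracture, 1 point per callus (blue, lean; orange, DIO) and lines through the means of 3: Cxcl12 to Pdgfra CPM (left) and Prrx1 to Prrx2 per kilobase of exon (right), both axes starting at 0. In DIO calli both ratios are at their highest mean on d21, at 19.2 and 2.57.

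Pdgfra (ENSMUSG00000029231, chr5:75152292-75198215, plus strand), the receptor for PDGF ligands on mesenchymal cells, changed little. It was 87.3, 109 and 96.9 CPM in DIO calli on d3, 106, 84.3 and 123 on d10, 156, 108 and 137 on d14 and 85.9, 94.6 and 84.3 on d21. The d14 and d21 groups did not overlap, while d10 overlapped with both. The change from d3 to d10 was 0.09 ± 0.16 (log2, SE; 95% interval -0.25 to 0.44) and from d10 to d21 -0.24 ± 0.16 (-0.59 to 0.10), and neither passed the test. The difference among all DIO days (adjusted p = 0.0153 by edgeR) was lost when all 30 libraries were fitted together. In lean calli Pdgfra ran from 56.5 to 124 CPM, both extremes on d10, and changed from d3 to d10 by a fitted -0.04 ± 0.25, or 0.19 ± 0.22 without replicate 1 of d10. A microRNA gene, Mir7025, shares 30 exon bases with Pdgfra on the same strand and had 92 counts in the whole table against 53654 for Pdgfra.

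Ly6a (ENSMUSG00000075602, chr15:74994877-74998031, minus strand), which encodes the lipid-anchored antigen SCA-1, fell in both diets. DIO values were 186, 101 and 133 CPM on d3, 64.8, 80.4 and 72.3 on d10, 41.5, 63.9 and 44.9 on d14 and 26.7, 37.8 and 34.2 on d21. From d10 on, each DIO day lay wholly below the day before it. The changes were -0.95 ± 0.23 from d3 to d10 (adjusted p = 0.00809 by edgeR) and -1.14 ± 0.24 from d10 to d21 (adjusted p = 0.00107), the first of which had an adjusted p of 0.054 without replicate 1 of d3. In lean calli Ly6a was 120, 91.5 and 160 CPM on d3 and 74.5, 71.2 and 70.3 on d10, a change of -0.75 ± 0.24 (adjusted p = 0.0321 by edgeR). These lean groups did not overlap, but the call was lost when any of these 6 mice other than replicate 2 of d3 was left out (adjusted p from 0.059 to 0.123). A stretch of 263 bases of Ly6a is 96.6% identical to Ly6c1, so the split of reads between these genes is uncertain. Ly6c1 fell by 0.94 on the log2 scale from d10 to d21 in DIO calli, while Ly6c2, a monocyte antigen, rose by 2.1.

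Thy1 (ENSMUSG00000032011, chr9:44043384-44048579, plus strand), which encodes CD90, was lower in DIO calli from d10 on. Its DIO values were 158, 105 and 120 CPM on d3, 162, 147 and 169 on d5 and 146, 126 and 108 on d7. They then went to 64.3, 91.2 and 77.7 CPM on d10, 28, 34.9 and 36.5 on d14 and 13.1, 28.5 and 14.2 on d21. All d10 values lay below all earlier ones and above all of d14. From d10 to d21 the change was -2.07 ± 0.25 (log2, SE; adjusted p = 1.4e-05 by edgeR), and from d3 to d10 it was -0.71 ± 0.24 (adjusted p = 0.0416), a call that was lost when any of 8 DIO libraries was left out (replicate 1 or 3 of d3 and each one of d5 and d10). In lean calli Thy1 went from 103, 81.5 and 110 CPM on d3 to 155, 114 and 109 on d10. These lean groups overlapped, and the change of 0.40 ± 0.19 had an adjusted p of 0.127 by edgeR, or 0.22 ± 0.18 and 0.402 without replicate 1 of d10. T cells also make Thy1, and over the same DIO days the 9 T-cell markers together went from 4.12 to 6.55 CPM on d3 up to 52.7 to 62.7 on d21.

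Lepr (ENSMUSG00000057722, chr4:101717404-101815352, plus strand), the receptor for the adipocyte hormone leptin, rose in DIO calli. It was 9.43, 25.0 and 20.9 CPM on d3, 22.2, 16.5 and 15.1 on d5 and 31.1, 17.4 and 15.1 on d7. It reached 50.3, 34.6 and 53.3 CPM on d10, 99.7, 62.8 and 72.0 on d14 and 81.4, 70.7 and 74.8 on d21. The d10 group was above all earlier DIO libraries and below all later ones. The rise from d3 to d10 was 1.32 ± 0.31 (log2, SE; adjusted p = 0.00655 by edgeR), and that from d10 to d21, 0.71 ± 0.31, had an adjusted p of 0.0679. Lean Lepr ran from 19.5 to 58.0 CPM, again both on d10, and its change from d3 to d10 was 0.27 ± 0.31 (95% interval -0.41 to 0.95). Without replicate 1 of lean d10 that change was 0.59 ± 0.24 (adjusted p = 0.0991 by edgeR). Stretches of 103 to 273 bases of Lepr are at least 95% identical to parts of Pdzd2, Pola2, Prodh2 and Gm12797, the last 2 of which had no counts.

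Cxcl12 (ENSMUSG00000061353, chr6:117168535-117181367, plus strand), the niche chemokine, rose in DIO calli up to d14 and then held its level. DIO values were 279, 304 and 187 CPM on d3, 244, 264 and 273 on d5 and 260, 239 and 328 on d7. They went to 979, 701 and 726 CPM on d10, to 1877, 1757 and 1667 on d14 and to 1809, 1702 and 1570 on d21. All d10 values were above the 9 earlier DIO libraries and below the 6 later ones, which did not separate from each other. The rise was 1.64 ± 0.20 from d3 to d10 (log2, SE; adjusted p = 3.16e-05 by edgeR) and 1.08 ± 0.20 from d10 to d21 (adjusted p = 3.98e-04), and the d21 mean was 6.59-fold that of d3. In lean calli the libraries were 237, 546 and 327 CPM on d3, 421, 814 and 323 on d5, 485, 685 and 620 on d7 and 145, 506 and 690 on d10. The lean days overlapped throughout, with a change of 0.31 ± 0.49 from d3 to d10 (95% interval -0.76 to 1.38), or 0.74 ± 0.37 without replicate 1 of d10. Relative to Pdgfra in the same library, Cxcl12 went from 2.64 ± 0.644 (SD, n = 3) on d3 to 7.83 ± 1.72 on d10 and 19.2 ± 1.61 on d21 in DIO calli, and stood between 2.51 and 10.0 in the 12 lean calli.

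Ebf3 (ENSMUSG00000010476, chr7:137193673-137314445, minus strand), which keeps marrow stromal cells from turning to bone, moved with Cxcl12 at a lower level. It was 21.1, 18.5 and 15.9 CPM in DIO calli on d3, 42.5, 31 and 33.7 on d10, 60.5, 54.2 and 52.6 on d14 and 48.6, 46.5 and 56.3 on d21. The d10 group was above all earlier DIO libraries and below all later ones. The rise was 0.95 ± 0.16 from d3 to d10 (log2, SE; adjusted p = 6.1e-04 by edgeR) and 0.50 ± 0.16 from d10 to d21 (adjusted p = 0.0188), where the second call was lost in the fit of all 30 libraries (adjusted p = 0.22) and without replicate 2 or 3 of d10 or replicate 3 of d21. In lean calli Ebf3 was 17.4, 26.1 and 31.2 CPM on d3 and 6.08, 29 and 31.4 on d10. The groups overlapped, and the change of -0.13 ± 0.44 became 0.32 ± 0.23 without replicate 1 of d10.

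Foxc1 (ENSMUSG00000050295, chr13:31806633-31812476, plus strand), a forkhead factor needed for the marrow niche and also active in forming cartilage and bone, had a pattern of its own. It rose in both diets, from 14.0, 13.8 and 18.7 CPM on d3 to 51.6, 40.6 and 41.4 on d10 in lean calli and from 10.3, 16 and 13.5 to 46.2, 35.3 and 36.1 in DIO calli. The d3 and d10 groups did not overlap in either diet. The change was 1.56 ± 0.26 (log2, SE; adjusted p = 0.00161 by edgeR) in lean calli and 1.56 ± 0.21 (adjusted p = 8.51e-05) in DIO calli, and the difference between these changes was 0.02 with a 95% interval of -0.64 to 0.69. Without replicate 1 of lean d10 the lean change was 1.44 ± 0.28 (adjusted p = 0.00472 by edgeR) and the difference 0.14 (-0.56 to 0.84). In DIO calli Foxc1 then fell to 20.8, 25.4 and 28.2 CPM on d21, by 0.66 on the log2 scale (adjusted p = 0.0152 by edgeR), a call lost without replicate 1 of either day. Cartilage markers moved in these days too: they summed to between 935 and 1491 CPM on lean d3 and between 16463 and 74217 on lean d10, and in DIO calli to between 783 and 1775 on d3, between 4881 and 9422 on d10 and between 1148 and 2232 on d21. Their part in the Foxc1 values was not tested.

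The diets were compared on d3, d5, d7 and d10, to ask whether these genes differed by diet on a given day after fracture. The same day need not be the same stage of healing in both diets. The 8 cartilage markers had a median sum of 36796 CPM in DIO and 6787 in lean calli on d7. On d10 these medians were 6191 and 17149 CPM. On d7, 1 of the 9 genes passed edgeR's test: Cxcl12 was lower in DIO calli, with a log2 difference of -1.10 ± 0.21 (SE; adjusted p = 0.0289), where 0.92% of all genes tested were lower. Lean d7 calli held 485, 685 and 620 CPM of Cxcl12 and DIO calli 260, 239 and 328, with no overlap. The call rested on single mice, as the adjusted p rose to between 0.0654 and 0.157 on leaving out any of the 6 other than replicate 3 of DIO d7, and to 0.0931 in the fit of all 30 libraries, while the log2 difference stayed between -1.23 and -0.996. Adiponectin (Adipoq) and lipoprotein lipase (Lpl), which niche stromal cells share with adipocytes, were also lower in DIO calli on d7, with log2 differences of -1.85 and -1.35 (adjusted p = 0.0293 and 0.0437 by edgeR). They were the only 2 called of 13 further niche genes examined. Of the rest, Igfbp5 (436 against 392 CPM in mean), Nes (80.6 against 59.4), Angpt1 and Il7 had higher means in DIO calli and the others lower means.

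On the other days edgeR called 0 of the 9 genes, where 0.0% of all genes tested were called on d3, 1.08% on d5 and 0.0% on d10. At an unadjusted p under 0.05 the members numbered 2, 4 and 1 on these days, and 4 on d7, where 15.1%, 18.5%, 7.05% and 16.6% of all genes tested lay under it. DESeq2 called 0 on d3 and d10 and 2 on d5 and d7 each, Lepr and Cxcl12 in both.

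**Figure D4:**
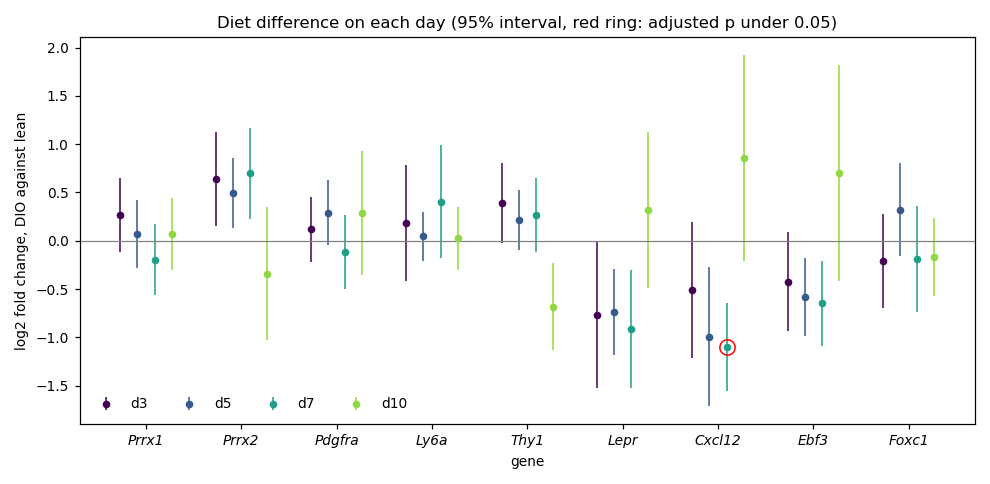
log2 fold change of DIO against lean calli for each gene on d3, d5, d7 and d10 (3 mice per diet and day), with 95% intervals of edgeR's fit as bars and a red ring at an adjusted p under 0.05. Cxcl12 lies at -0.99 on d5, -1.10 on d7 (ringed) and 0.86 on d10, where its interval reaches from -0.21 to 1.93.

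Lepr, Cxcl12 and Ebf3 had lower values in DIO calli on d5 and d7. Lepr was 25.9, 27.6 and 36.4 CPM in lean calli on d5 and 22.2, 16.5 and 15.1 in DIO calli, and on d7 33.6, 42.9 and 44.7 against 31.1, 17.4 and 15.1. Its log2 differences were -0.74 ± 0.19 and -0.91 ± 0.27, with adjusted p of 0.107 and 0.129 by edgeR. Ebf3 was 38.8, 40.4 and 26.6 CPM against 21.2, 24.6 and 24.8 on d5 and 27.8, 29 and 33.7 against 16.4, 22.9 and 18 on d7, with log2 differences of -0.58 ± 0.18 and -0.65 ± 0.20 and adjusted p of 0.141 and 0.131. For all 3 genes the diets did not overlap on either day, as in 12.2% of all 17357 genes on d5 and 11.6% on d7 with DIO calli the lower.

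By d10 the 3 genes no longer had lower means in DIO calli, with log2 differences of 0.32 ± 0.36 for Lepr, 0.86 ± 0.47 for Cxcl12 and 0.70 ± 0.49 for Ebf3. None passed the test (adjusted p = 0.837, 0.688 and 0.735 by edgeR). Without replicate 1 of lean d10 the same differences were -0.01 ± 0.23, 0.42 ± 0.22 and 0.24 ± 0.20. The values of lean d10 that set these differences thus depended on 1 library, the one with the highest cartilage markers.

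Prrx2 had higher values in DIO calli through d7. All 3 DIO calli lay above all 3 lean calli on each of these days, with log2 differences of 0.64 ± 0.21, 0.49 ± 0.16 and 0.70 ± 0.21. None of these passed the test (adjusted p = 0.227, 0.155 and 0.134 by edgeR), and on d10 the groups overlapped at -0.34 ± 0.30, or -0.23 ± 0.29 without replicate 1 of lean d10. Over all genes, DIO calli were the higher without overlap in 8.44% on d3, 10.3% on d5 and 9.8% on d7. Thy1 was not separated by diet until d10, when DIO calli held 64.3, 91.2 and 77.7 CPM against 155, 114 and 109 in lean calli. Its log2 difference was -0.68 ± 0.20 (adjusted p = 0.686 by edgeR), or -0.52 ± 0.18 without replicate 1 of lean d10. On d10, DIO calli were the lower without overlap in 7.02% of all genes. Prrx1, Ly6a and Foxc1 overlapped between the diets on each of the 4 days, with log2 differences between -0.21 and 0.40. Pdgfra overlapped on 3 of the days, and on d5 its 3 DIO values (119 to 133 CPM) lay above the lean ones (81.4 to 116).

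Whether the diet difference itself changed with time was tested over the 24 libraries of d3 to d10. In edgeR's test 0 of the 9 genes passed for any change over the 4 days, against 1.65% of all genes tested, and 0 passed for the change from d3 to d10, against 0.00586%. At an unadjusted p under 0.05 there were 4 and 5 members, where 18.4% and 18.3% of all genes lay under it, and DESeq2 called 2 (Cxcl12 and Thy1) and 1 (Thy1). Thy1 came nearest, as its change from d3 to d10 in DIO minus that in lean calli was -1.09 ± 0.26 on the log2 scale (adjusted p = 0.0953 by edgeR), and -0.91 ± 0.26 without replicate 1 of lean d10 (adjusted p = 0.304). The same difference was 1.36 ± 0.56 for Cxcl12, 1.11 ± 0.50 for Ebf3, 1.07 ± 0.49 for Lepr and -0.995 ± 0.37 for Prrx2, with adjusted p between 0.17 and 0.254. Without replicate 1 of lean d10 it was 0.94 ± 0.44 for Cxcl12, 0.66 ± 0.30 for Ebf3, 0.76 ± 0.46 for Lepr and -0.87 ± 0.39 for Prrx2, with adjusted p between 0.446 and 0.6 by edgeR.

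Other genes used to mark such cells were counted over lists of known progenitor and niche genes, named by their adjusted p. Whether their RNA came from the same cells as that of the 9 genes was not tested. Of 19 further progenitor genes, 18 passed the filter on low counts within each diet (not Msx2). From d10 to d21 in DIO calli 9 of the 18 fell and 2 rose, with a median log2 change of -0.65 against -0.05 over all genes, of which 21.8% fell and 21.7% rose. Gli1, a transcription factor of hedgehog signalling, fell by 2.63, the adhesion molecule Mcam by 1.18 and Cd34 by 1.06, while the peptidase gene Dpp4 rose by 2.62. From d3 to d10, 2 rose and 2 fell in DIO calli, where 11.1% of all genes rose and 10.8% fell. In lean calli 6 rose and 4 fell, where 15.2% of all genes rose and 14.1% fell. There Gli1 rose by 1.94 and Cd200 by 1.39. On d7, 1 was higher in DIO than in lean calli, Nt5e (CD73), by 1.23 ± 0.25 (adjusted p = 0.0381 by edgeR).

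Of 13 further niche genes, 4 rose and 3 fell from d10 to d21 in DIO calli, with a median log2 change of 0.57, where 21.7% of all genes rose and 21.8% fell. Vcam1, an adhesion molecule of marrow stroma, rose by 1.60, Adipoq by 1.97 and the EBF3 paralog Ebf1 by 0.96, while Nes, which encodes nestin, fell by 1.26. From d3 to d10, 3 rose in DIO calli and 0 fell, where 11.1% of all genes rose and 10.8% fell. Adipoq rose by 3.12, Vcam1 by 0.96 and the lymphocyte growth factor Il7 by 1.09 (adjusted p = 4.06e-05, 0.00294 and 0.0486 by edgeR). In lean calli edgeR called 0 of the 13 from d3 to d10, where 15.2% of all genes rose and 14.1% fell.

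Ligands, receptors and signalling partners of the members were followed as well. Of 11 such genes, 3 rose and 5 fell from d10 to d21 in DIO calli, where 21.7% of all genes rose and 21.8% fell. In either diet 2 rose and 2 fell from d3 to d10. Over those days 11.1% of all genes rose and 10.8% fell in DIO calli, and 15.2% and 14.1% in lean calli. The CXCL12 receptor gene Cxcr4, carried by leukocytes, rose by 2.11 from d10 to d21 in DIO calli, and in lean calli it fell by 1.93 from d3 to d10. These spans differ, and the DIO mean of Cxcr4 was 37.2 CPM on d3 and 30.2 on d10. The scavenging CXCL12 receptor gene Ackr3 rose from d3 to d10 in both diets, by 1.57 in DIO and 1.24 in lean calli. Of the PDGF ligands that PDGFRA and its relatives bind, Pdgfa and Pdgfb fell by 1.12 and 0.96 from d10 to d21 in DIO calli, and Pdgfd rose by 1.61 from d3 to d10. Of the leptin receptor's signalling partners, Socs3, its feedback inhibitor, fell by 1.72 from d3 to d10 and Jak2, its kinase, rose by 0.78 from d10 to d21 in DIO calli.

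Among paralogs other than Ebf1, Ebf4 rose from d3 to d10 by 1.82 in DIO and 2.69 in lean calli, and Ebf2 fell by 0.88 in DIO calli. Pdgfrb, the second PDGF receptor, fell by 0.76 from d10 to d21 in DIO calli. Of 8 paralogs, 2 rose and 3 fell over these days, where 21.7% of all genes rose and 21.8% fell. Between d3 and d10, 1 rose and 1 fell in DIO calli, where 11.1% of all genes rose and 10.8% fell. Lean calli had 2 that rose and 2 that fell, where 15.2% and 14.1% of all genes did.

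Markers of other cell types moved over the same days. In DIO calli the 11 leukocyte markers summed to between 1642 and 2227 CPM on d3, between 2128 and 2652 on d10 and between 4217 and 8314 on d21, and 8 of the 11 rose from d10 to d21. The 7 adipocyte markers, Adipoq among them, summed to between 108 and 262 CPM on d3, between 236 and 399 on d10 and between 855 and 949 on d21, and all 7 rose from d10 to d21. The 9 T-cell markers were between 24.4 and 33.5 CPM in sum on d10, and 3 of them rose from d10 to d21. Of all genes tested, 21.7% rose from d10 to d21. From d3 to d10, when Lepr, Cxcl12 and Ebf3 rose, all 9 T-cell markers, 6 of the 8 cartilage markers, 4 of the 7 adipocyte markers, 3 of the 8 osteoblast markers, 3 of the 11 leukocyte markers, 2 of the 6 pericyte markers and 2 of the 9 endothelial markers rose, and 1 leukocyte marker fell, where 11.1% of all genes rose and 10.8% fell.

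From d10 to d21 in DIO calli, the days in which Prrx1, Prrx2, Ly6a and Thy1 fell, 8 of 8 cartilage markers fell, with 4 of 8 for osteoblasts, 3 of 6 for pericytes, 3 of 7 for skeletal muscle, 3 of 9 for endothelium and 1 of 11 for leukocytes, where 21.8% of all genes fell. The 6 pericyte markers went from between 617 and 642 CPM on d10 to between 249 and 354 on d21, and the 9 endothelial markers from between 630 and 737 to between 465 and 608. The 2 largest pericyte markers, Rgs5 and Cspg4, went in mean from 251 to 97.2 and from 234 to 63.9 CPM. Notch3 and Myh11 also had lower means on d21. Abcc9 (46.7 to 62.8 CPM) and Kcnj8 (22.3 to 25.8) had higher ones, so the pericyte list did not move as a whole. The 8 markers of haematopoietic progenitors went from between 43.6 and 56.3 CPM to between 81.4 and 92.2, with 3 that rose and 2 that fell. Over these days 21.7% of all genes rose. Between the diets on d7, the day on which Cxcl12 was lower, 3 of 11 leukocyte markers were lower in DIO calli. So were 1 of the 4 adipocyte markers tested (Adipoq) and 1 of 8 osteoblast markers, where 0.92% of all genes tested were lower. Higher in DIO calli were 2 of 8 cartilage markers and 1 of 6 pericyte markers. The part of these cell types in the values of the 9 genes was not tested.

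Over the 30 libraries the 9 genes fell into a group with like patterns on each side of zero (Pearson r of log2 CPM, a description over libraries that share diets, days and mice). Prrx2, Ly6a and Thy1 went together, with r = 0.918 for Prrx2 and Ly6a, 0.921 for Prrx2 and Thy1 and 0.884 for Ly6a and Thy1. Prrx1 went with them less closely (r = 0.723 for Thy1, 0.716 for Prrx2 and 0.643 for Ly6a) and against Cxcl12 (-0.502). Cxcl12 went with Ebf3 (r = 0.89) and with Lepr (0.869), and against Prrx2 (-0.84). Pdgfra and Foxc1 stood apart from both.

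**Figure D5:**
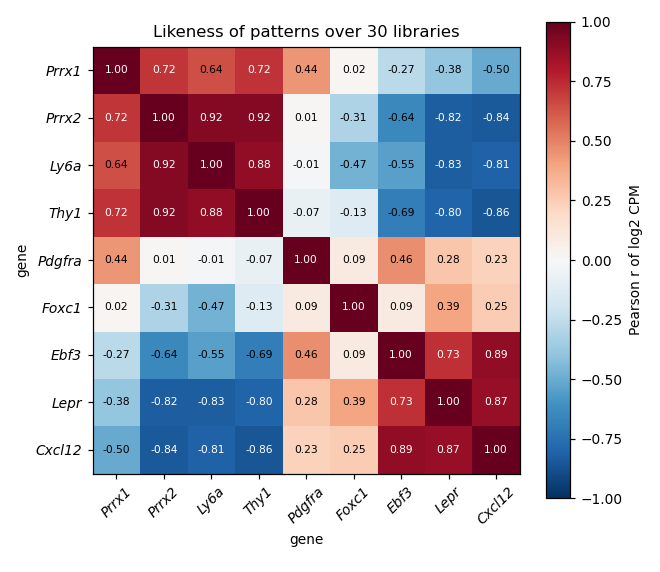
Pearson r of log2 CPM over 30 libraries for each pair of the 9 genes, from blue (-1) over white (0) to red (1). Prrx2, Ly6a and Thy1 form one red block and Ebf3, Lepr and Cxcl12 another, with negative values between the blocks.

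Among all genes with a mean of at least 1 CPM, those most like each member by the same measure differed in kind between members. For Prrx2 they were the fibrous collagen gene Col3a1 (r = 0.968), the collagen prolyl hydroxylase gene P4ha3 (0.964) and Mrgprf (0.963). For Thy1 they were the collagen gene Col18a1 (0.972), Tgfb3 (0.966) and Vwa1 (0.963), and for Ly6a the matrix gene Fbln2 (0.942), Rnase4 (0.937) and Asap3 (0.934). For Prrx1 they were the endothelin receptor gene Ednra (0.912), Eogt (0.893) and Ajuba (0.869), and for Pdgfra they were Map4k3 (0.861), Zfhx4 (0.838) and Nav3 (0.80).

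For Cxcl12 the most alike genes were Arrdc4 (r = 0.967), S1pr5 (0.963) and Cd79b (0.947), the last a part of the B-cell receptor. For Lepr they were the coagulation factor gene F8 (0.932), Tnfrsf19 (0.921) and Arrdc4 (0.92), and for Ebf3 they were Tnfsf10 (0.917), Pla2g7 (0.903) and Cxcl12 itself (0.89). For Foxc1 they were the histone demethylase gene Kdm5b (0.922), the angiotensinogen gene Agt (0.909) and Lgr6 (0.908).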

How the data were processed

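The deposited table holds raw read counts per gene. The authors demultiplexed reads with bcl2fastq, filtered them with BBDuk, aligned them to GRCm38 with HISAT2 2.1.0 and counted them with HTSeq, whose strand setting and annotation are not given in the sources used here. The authors' deposited counts were not normalized. Gene names, exon lengths and overlaps were taken from GENCODE M21 (GRCm38), which held 42462 of 43629 identifiers.

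Counts were analysed in R 4.3.3 with edgeR 4.0.16 (TMM factors, filterByExpr, quasi-likelihood F-test, two-sided, Benjamini-Hochberg threshold 0.05 over all genes), after a check on simulated data. The authors tested with DESeq2, which was an alternative here (1.42.0). Diets were compared within a day over 6 libraries, lean days over 12, DIO days over 18 and the change of the diet difference over 24. CPM use TMM factors over 17357 genes in 30 libraries, and log2 CPM a prior count of 2. Other alternatives were RLE factors, no filter beyond 1 count, a replicate block, 1 fit of all 30 libraries and leaving out each library.

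The 9 genes and the gene lists were chosen with earlier results of these data known. All members are named. Of each further list no more than 4 genes, those of lowest adjusted p in a comparison, are named, with genes that overlap or nearly match a member and the 3 most alike genes. Near-identical stretches (at least 100 bases and 95% identity) were found with BLAST 2.17.0. No 2 libraries of a group agreed within sampling noise (chi-square per degree of freedom 12.8 to 148 over 30 pairs). Intervals are at 95%.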

Additional observations from a re-analysis of the deposited data

Results flagged for a closer look

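Cxcl12 was lower in every DIO callus than in every lean callus on d5 and d7 and higher in every DIO callus on d10. Over all 17357 genes, DIO calli were the lower without overlap in 12.2% on d5 and 11.6% on d7. They were the higher in 6.86% on d10. The log2 differences of Cxcl12, DIO against lean, were -0.99 on d5, -1.10 on d7 and 0.86 on d10. The d10 groups were separated narrowly, at 701 CPM for the lowest DIO callus and 690 for the highest lean one, and the d10 difference was 0.42 ± 0.22 without replicate 1 of lean d10. The change of the diet difference over d3 to d10 had an adjusted p of 0.134 by edgeR, and the differences between these pairs of days were not tested on their own.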

How the results depend on the processing

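No called log2 change of a member reversed its direction under the alternatives run. Of 367 refits of these called changes, 341 kept their side of the threshold and 26 lost it, in Cxcl12 on d7, Ly6a, Thy1, Ebf3 and Foxc1. Of differences that did not pass the test, 5 changed sign without replicate 1 of lean d10: the lean change from d3 to d10 of Ebf3 (-0.13 to 0.32) and Pdgfra (-0.04 to 0.19), the diet difference on d10 of Lepr (0.32 to -0.01) and Prrx1 (0.07 to -0.02), and the difference of the diets' changes from d3 to d10 of Pdgfra (0.15 to -0.08). With DESeq2, 2 members were called with diet on d5 (Lepr and Cxcl12, against 0), 2 on d7 (against 1), 3 among lean days (Prrx2, Ly6a and Foxc1, against 1), 2 in the change of the diet difference over d3 to d10 and 1 in that from d3 to d10 (against 0 each). With no filter beyond 1 count, 2 were called on d7, 3 among lean days and 1 in the change over d3 to d10. With all 30 libraries in 1 fit, 0 were called on d7, 2 among lean days and 8 among DIO days (all but Pdgfra, against 9). With a replicate block, 2 were called among lean days (Prrx2 and Foxc1). No replicate numbers paired the mice, as 1 pair of groups alone had every same-numbered correlation over 0.1, and the block moved no other count of members by over 1.5 times. Leaving out 1 library gave 0 to 2 members on d5 (2, Cxcl12 and Ebf3, without replicate 3 of lean d5), 0 to 1 on d7, 1 to 2 among lean days and for lean d10 against d3, and 0 to 1 in both changes of the diet difference (1, Thy1, without replicate 3 of lean d10 and, for d3 to d10, also without replicate 2).

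Counts over all genes moved more. On d3 edgeR called 0 genes, against 515 with no filter, 325 with the block and 743 with DESeq2. On d5 the counts were 170, against 565, 0 and 1107 in that order and 63 in the fit of all 30 libraries, and on d7 366 against 724, 934 with DESeq2 and 675 with all 30. On d10 they were 0, against 29 with no filter, 56 with DESeq2 and 3 with all 30. Among lean days DESeq2 called 4746 genes against 3132. The change of the diet difference gave 282 genes, against 503 with no filter and 1105 with DESeq2, and that from d3 to d10 gave 1, against 85, 453, 2 with the block and 0 with all 30. With 3 mice per group, small changes may have been missed, and lean calli after d10 were not analysed here.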
